A study of Rattus norvegicus with 12 samples.

Results

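Matrix metalloproteases, the ADAM protease Adam19 and the tissue inhibitors of metalloproteases (TIMPs) were followed by age in rat semilunar valves and proximal aorta. The members were Mmp2, Mmp3, Mmp9, Mmp11, Mmp14, Mmp23, Adam19, Timp1, Timp2 and Timp3, which are 10 of the 14217 genes that the arrays name by 1 gene symbol. All probe sets annotated with exactly 1 of these symbols were taken, which gave 22 probe sets. A signal above 171.9, the median of all values, on at least 3 of the 12 arrays was reached by 16 of them, and these were tested. They cover 8 genes, and the probe sets of Mmp3 and Mmp9 are described without being tested. Of the 16 tested probe sets, 4 reached that minimum only because of the neonatal aorta arrays, so a lower level elsewhere was built into their selection. These are the probe sets of Mmp11, 1378225_at of Mmp14, 1381451_at of Mmp23 and 1368989_at of Timp3, and their calls against neonatal aorta are given without weight. None of their valve signals exceeded 171.9, so their calls between adult tissues are given without weight as well. Probe set 1385382_at of Adam19 reached that minimum only through the neonatal arrays of both tissues, so its calls between ages are also given without weight. Likewise 1367823_at of Timp2 reached it only through the aorta arrays of both ages, so its calls between tissues are given without weight.

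Total RNA was hybridised to 12 Affymetrix arrays, 3 in each of 4 groups. The groups were adult semilunar valves (aortic and pulmonary together), semilunar valves of neonates taken within 24 h of birth, the proximal part of the adult aorta, and the proximal aorta of neonates of the same age. All animals were Wistar rats without a stated treatment or mutation, the adults are labelled male, and the age of the adults was not stated. The labels do not state how many animals went into a sample or whether samples came from separate animals, so the p-values measure only the spread between these samples. For 6 samples the titles and source names call the tissue adult aorta or neonatal valve while the descriptions exchange these, and the titles were followed.

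Matrix metalloproteases are zinc-dependent enzymes that cut collagens, elastin, proteoglycans and other matrix proteins, mostly after release as inactive precursors. TIMPs bind their active sites, so the balance of enzyme and inhibitor sets how quickly a matrix is taken down. In heart valves and large arteries both are made largely by interstitial cells and smooth muscle cells, and they act in the shaping of leaflets and of the layered vessel wall after birth.

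The upstream sequences of 3 members are shown, chosen for the differences described here among members with a promoter sequence available. Mmp14 was called by age in the aorta and between neonatal tissues but had no such sequence. Adam19 was lower in adults in both tissues, the Timp3 probe sets had higher means in adults, and Timp1 was lower in neonatal valve than in neonatal aorta. Each sequence is the 250 bases before the transcript start that a RefSeq promoter table uses, on build GRCr8, read 5′ to 3′ on the gene's strand. For Adam19 and Timp1 that start lies inside the span RefSeq lists for the gene. Capitals mark AP-1 sites (TGANTCA) and GC boxes (GGGCGG, or CCGCCC where it lies on the other strand), both searched on both strands, and the TATA box TATAAA was searched in the same way. The Adam19 window is chr10:30992511-30992760 on the plus strand, the Timp3 window is chr7:19459559-19459808 on the minus strand and the Timp1 window is chrX:3771123-3771372 on the minus strand.
Adam19: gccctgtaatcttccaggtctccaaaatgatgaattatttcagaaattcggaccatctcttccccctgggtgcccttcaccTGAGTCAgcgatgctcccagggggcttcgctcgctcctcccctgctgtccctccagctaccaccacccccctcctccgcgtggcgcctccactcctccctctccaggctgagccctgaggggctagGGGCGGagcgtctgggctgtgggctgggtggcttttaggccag
Timp3: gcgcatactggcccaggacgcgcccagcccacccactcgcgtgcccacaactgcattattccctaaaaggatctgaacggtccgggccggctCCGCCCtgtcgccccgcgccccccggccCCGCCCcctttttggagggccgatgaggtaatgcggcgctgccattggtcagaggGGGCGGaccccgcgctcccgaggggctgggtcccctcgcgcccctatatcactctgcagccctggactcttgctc
Timp1: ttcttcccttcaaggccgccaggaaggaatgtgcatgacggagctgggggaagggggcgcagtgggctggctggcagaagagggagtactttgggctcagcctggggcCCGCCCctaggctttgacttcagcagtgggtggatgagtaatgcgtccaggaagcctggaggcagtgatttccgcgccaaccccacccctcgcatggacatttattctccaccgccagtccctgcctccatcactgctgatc
The Adam19 window holds 1 AP-1 match, 169 bases before the start, and 1 GC box, 43 bases before it. The Timp3 window holds 3 GC boxes and the Timp1 window 1, at 142 bases before the start, and neither holds the AP-1 letters. Of the 10 members, 7 had such a window, with no window for Mmp2, Mmp9 and Mmp14. Among these 7, AP-1 letters were in 2 (Adam19 and Mmp3), a TATA box in 1 (Mmp3) and a GC box in 6. Of all 33469 windows of this length, 6.34% held the AP-1 letters, 12.9% the TATA box and 30.5% the GC box. These matches are a description of letters and say nothing of which factors bind.

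Several properties of the arrays bear on the values that follow. The median signal per array was 133 to 169.6 on valve arrays and 183 to 202 on aorta arrays. The 3′ to 5′ signal ratio of the beta-actin control probe sets, a measure of RNA integrity and labelling, was 7.24 to 14.0 on valve arrays and 1.40 to 2.59 on aorta arrays, with no overlap. Within valve that ratio was 10.6 to 14.0 on adult and 7.24 to 8.84 on neonatal arrays, and the same ratio for GAPDH was 2.78 to 5.13 on adult and 1.97 to 2.60 on neonatal arrays. Age and RNA integrity can thus not be told apart within valve. Xist, expressed from the inactive X chromosome of females, had signals of 10998 to 18362 on valve arrays and 5.08 to 297 on aorta arrays. The Y-linked gene Eif2s3y had signals of 1.39 to 134 on valve arrays and 1379 to 2557 on aorta arrays, so the adult valve arrays go against their label of male. Tissue, sex and RNA integrity can therefore not be told apart in the comparisons of valve with aorta. Igf2, a fetal growth factor gene, had signals of 184 to 879 on arrays titled adult and 6189 to 20768 on arrays titled neonatal. Added control RNAs gave no signal on neonatal aorta arrays 2 and 3. There their 8 probe sets read 2.52 to 54.6, and signals up to 54.6 are called absent level here.

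Other tissues were seen on single arrays. Adult aorta 1 had a summed squamous epithelium marker signal of 136845, whereas adult aorta 2 and 3 read 566 to 645, and a summed skeletal muscle marker signal of 148453, where the others read 12584 to 18116. Its summed signal of 8 fibroblast and valve interstitial markers was 65105, against 136504 and 154575 on the other adult aorta arrays. Neonatal aorta 2 had a squamous marker sum of 72426, and neonatal valve 3 had a thymocyte marker sum of 26697, against 769 and 2523 on the other neonatal valve arrays. Adult aorta 1 was the lowest of its group for 15 of the 16 tested member probe sets, and for 45.5% of all 18552 tested probe sets. Across the members it lay at a median of -1.69 in log2 signal against the mean of adult aorta 2 and 3, and across all tested probe sets at -0.12. The part of these tissues in the results was not tested, and results that rest on adult aorta 1 are given with and without it.

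**Figure D1:**
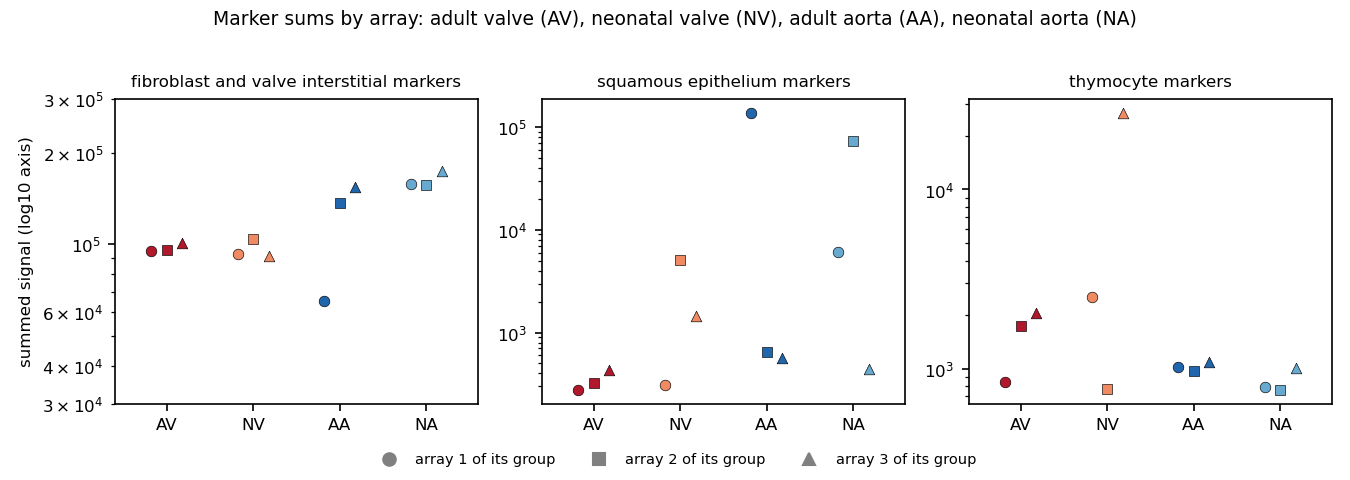
Summed signals (log10 axis) of 3 marker lists on each array, with groups from left to right adult valve (AV), neonatal valve (NV), adult aorta (AA) and neonatal aorta (NA); each point is 1 array, its shape the array number. Adult aorta 1 stands at 65105 for fibroblast markers and 136845 for squamous markers, and neonatal valve 3 at 26697 for thymocyte markers.

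As a check of tissue, all 8 fibroblast and valve interstitial markers were tested and none was at absent level on every array of a group. Their sum was 91888 to 104035 on valve arrays and 136504 to 174335 on aorta arrays other than adult aorta 1. Smooth muscle markers summed to 1725 to 40107 on adult valve, 9516 to 13471 on neonatal valve, 30511 to 123781 on adult aorta and 26864 to 40401 on neonatal aorta arrays. Cardiac muscle markers summed to 3817 to 83587 on adult valve, 75463 to 92163 on neonatal valve, 205 to 308 on adult aorta and 31461 to 54428 on neonatal aorta arrays, so heart muscle RNA was present on all but the adult aorta arrays. The part of these amounts in the members' values was not tested.

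The values below are MAS5 signals, which the authors scaled to a common trimmed mean on each array. Differences are in mean log2 signal, adult minus neonatal or valve minus aorta, with the standard error of a limma fit over all 12 arrays, and were called at a Benjamini-Hochberg adjusted p under 0.05 over all 18552 probe sets. Levels of different probe sets are not comparable with one another.

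**Figure D2:**
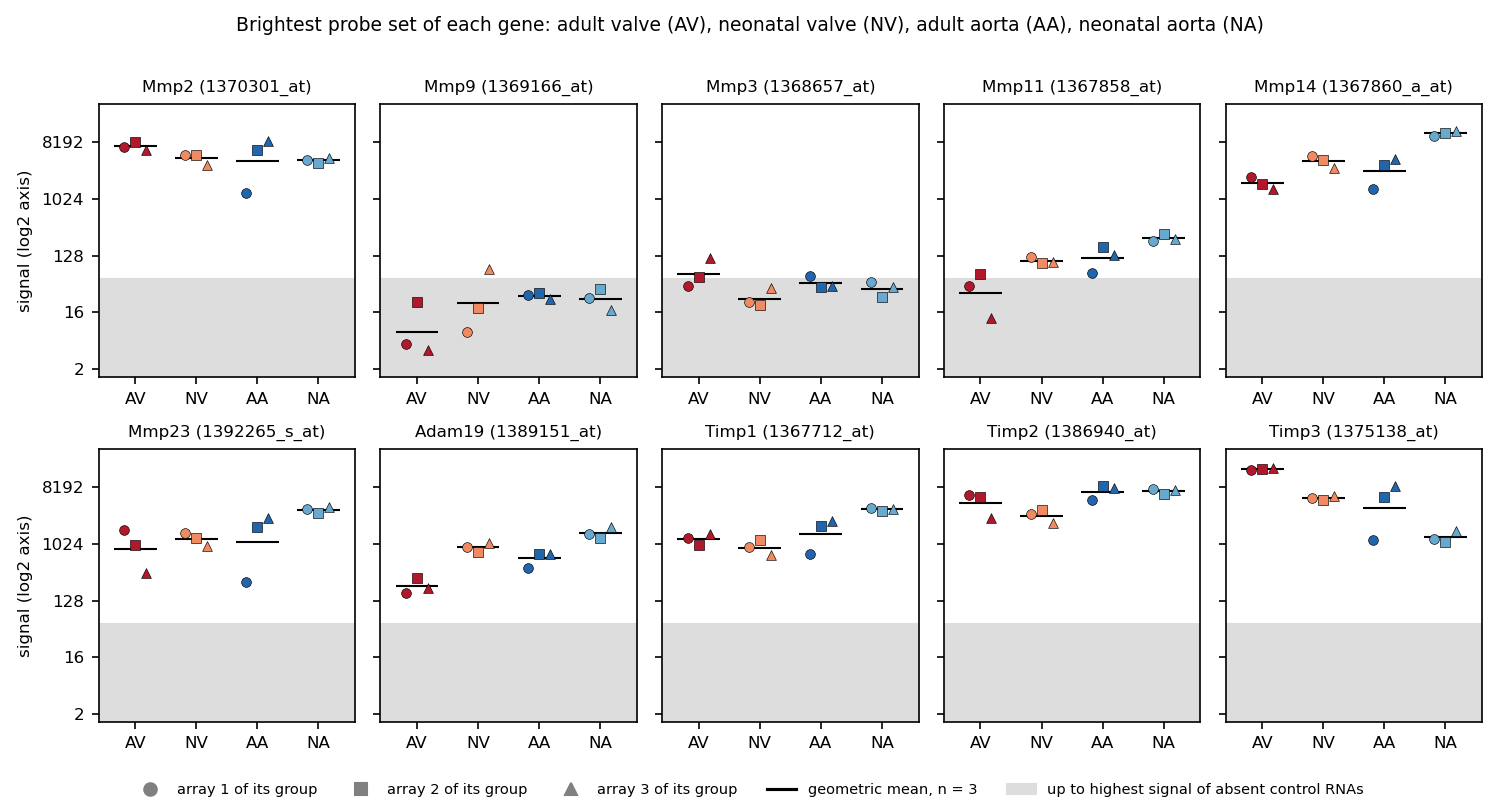
Signal (log2 axis) of the brightest probe set of each of the 10 genes on every array, with groups from left to right adult valve (AV), neonatal valve (NV), adult aorta (AA) and neonatal aorta (NA); points are arrays, bars are geometric means of 3 arrays and the grey band ends at 54.6, the highest signal of absent control RNAs. Mmp14, Mmp11, Mmp23, Adam19 and Timp1 have their highest mean in neonatal aorta, Timp3 has its highest in adult valve, and Mmp9 stays within the band on 11 of 12 arrays.

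The gelatinases Mmp2 and Mmp9 cut denatured collagen and basement membrane. Mmp2 was well above the median signal of 171.9 on every array. Its probe set 1370301_at read 6823, 8314 and 6112 on adult valve arrays and 5071, 5194 and 3564 on neonatal valve arrays. On adult aorta arrays it read 1294, 6044 and 8488, and on neonatal aorta arrays 4202, 3749 and 4653. The adult and neonatal valve arrays did not overlap, while in the aorta adult array 1 lay below and adult arrays 2 and 3 lay above all neonatal arrays. The difference was 0.63 ± 0.53 in the valve (limma adjusted p = 0.49) and -0.05 ± 0.53 in the aorta (adjusted p = 0.97), and neither was called. Without adult aorta 1 the aorta difference was 0.78 ± 0.23 (adjusted p = 0.051). Between adult tissues the difference was 0.79 ± 0.53 with all arrays and -0.03 ± 0.23 without adult aorta 1, and between neonatal tissues it was 0.12 ± 0.53. In tissue RNA such as this, fewer cells of a type and less RNA per cell cannot be told apart. The other Mmp2 probe set, 1369825_at, read 48.1 to 190.0 over the 12 arrays and was not tested.

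Mmp9, a gelatinase known from neutrophils, macrophages and osteoclasts, was near absent level. Probe set 1369166_at read 4.97, 23.7 and 4.02 on adult valve, 7.78, 18.5 and 77.8 on neonatal valve, 30.0, 32.9 and 25.8 on adult aorta and 27.6, 38.3 and 17.2 on neonatal aorta arrays. Probe set 1398275_at read 2.10 to 3.70 on adult valve arrays, 1.77, 6.21 and 149.9 on neonatal valve arrays and 3.02 to 8.86 on aorta arrays. Each probe set was above absent level on 1 of 12 arrays, which both times was neonatal valve 3, the array with thymocyte markers. Neutrophil markers, of which 5 of 9 were on the array, summed to 111 to 662 on adult valve, 330.4 to 355 on neonatal valve, 215 to 738 on adult aorta and 866 to 2288 on neonatal aorta arrays. Of these 5 markers, 1 or 2 per group were at absent level on every array. The sum was highest on the neonatal aorta arrays, and its relation to Mmp9 was not tested.

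The stromelysins include Mmp3, which cuts proteoglycans and activates other metalloproteases, and Mmp11, known from remodelling tissue in development. Mmp3 read 41.9, 59.7 and 116 on adult valve, 23.0, 21.2 and 38.6 on neonatal valve, 60.6, 39.9 and 42.4 on adult aorta and 48.0, 28.2 and 40.5 on neonatal aorta arrays, at absent level on 9 of the 12. The 3 adult valve arrays were all above the 3 neonatal valve arrays. As every neonatal valve signal was at absent level, no size is given, and in a fit of all probe sets without the filter the limma adjusted p was 0.17.

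Mmp11 read 41.9, 65.3 and 12.9 on adult valve and 123, 96.3 and 103 on neonatal valve arrays. It read 68.5, 175 and 130.4 on adult aorta and 219.6, 281 and 236 on neonatal aorta arrays. The adult arrays lay below the neonatal arrays without overlap in both tissues, and the valve arrays below the aorta arrays of the same age. Adult valve signals were at absent level on 2 of 3 arrays, so no size is given for differences with that group. Only the difference between adult tissues was called, lower in adult valve (limma adjusted p = 0.026). The difference between ages had an adjusted p of 0.081 in the valve (0.048 without adult aorta 1) and was -1.07 ± 0.57 in the aorta (adjusted p = 0.29). Neonatal valve minus neonatal aorta was -1.19 ± 0.57 (adjusted p = 0.13). This probe set passed the filter only through neonatal aorta, and the call between adult tissues was lost in 3 of the 12 fits that left out 1 array.

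Mmp14 is a membrane-bound collagenase that also activates the Mmp2 precursor together with Timp2. Probe set 1367860_a_at read 2291, 1778 and 1477 on adult valve and 4990.3, 4310.0 and 3145 on neonatal valve arrays. It read 1465, 3490.1 and 4425 on adult aorta and 10263, 11262 and 12493 on neonatal aorta arrays. Every neonatal aorta array was above every other array, and the adult valve arrays were below the neonatal valve arrays. Mmp14 was lower in adult than in neonatal aorta by 4.00-fold, a difference of -2.00 ± 0.36 (limma adjusted p = 0.009), and this was -1.52 ± 0.25 (adjusted p = 0.0036) without adult aorta 1. With the 2 arrays lacking control RNA as a block it was -1.86 ± 0.53 (adjusted p = 0.21), a fit in which neonatal aorta 1 is the neonatal aorta array that stands beside the other groups. Cardiac muscle markers moved with the aorta difference, at 205 to 308 on adult and 31461 to 54428 on neonatal aorta arrays, and their part in it was not tested. In the valve the age difference was -1.16 ± 0.36 (adjusted p = 0.067, and 0.0067 without adult aorta 1). Mmp14 was also lower in neonatal valve than in neonatal aorta, with a log2 difference of -1.47 ± 0.36 (adjusted p = 0.0098), a call that the control RNA block ended at -1.33 ± 0.53 (adjusted p = 0.15). Between adult tissues the difference was -0.64 ± 0.36 (adjusted p = 0.19, and 0.0059 without adult aorta 1, at -1.11 ± 0.25). The dimmer probe set 1378225_at read 26.7 to 61.1 on adult valve, 63.7 to 107 on neonatal valve, 53.5 to 209.8 on adult aorta and 267 to 389 on neonatal aorta arrays. It passed the filter only through neonatal aorta, so its call between neonatal tissues, at -2.07 ± 0.52 (adjusted p = 0.011), was favoured by its selection and adds nothing to that of the brighter probe set. By age it was not called, at -1.58 ± 0.52 in the aorta (adjusted p = 0.088, and 0.15 without adult aorta 1). In the valve its adjusted p by age was 0.35, with 2 of 3 adult signals at absent level, so no size is given.

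Mmp23 encodes a small membrane-anchored metalloprotease that lacks the usual cysteine switch. Probe set 1368961_at read 649.6, 471 and 298 on adult valve and 641, 604 and 519 on neonatal valve arrays. It read 305, 1019.7 and 1596 on adult aorta and 3157, 2140.4 and 2995 on neonatal aorta arrays, where all 3 signals exceeded those of every other array. Mmp23 by this probe set was 4.65-fold lower in neonatal valve than in neonatal aorta, a log2 difference of -2.22 ± 0.50 (limma adjusted p = 0.0068). The control RNA block ended that call, at -2.43 ± 0.75 (adjusted p = 0.077). The same contrast was called at -1.28 ± 0.31 for 1381451_at (adjusted p = 0.009, and 0.092 with that block), which passed the filter only through neonatal aorta and so is no further support, and was -1.55 ± 0.77 for the brightest probe set, 1392265_s_at (adjusted p = 0.15). Adult minus neonatal aorta was -1.78 ± 0.50 for 1368961_at (adjusted p = 0.057), -1.72 ± 0.77 for 1392265_s_at and -0.48 ± 0.31 for 1381451_at, none of them called. Without adult aorta 1 these were -1.09 ± 0.33, -0.68 ± 0.51 and -0.19 ± 0.29, again not called. Adult valve minus adult aorta was -0.82 ± 0.50, -0.36 ± 0.77 and -0.75 ± 0.31 in the same order, with no call. Leaving out adult aorta 1 gave -1.50 ± 0.33, -1.41 ± 0.51 and -1.03 ± 0.29, all called lower (adjusted p = 0.0058, 0.0497 and 0.018). Probe set 1392265_s_at read 1713, 977 and 353 on adult valve arrays, 1507, 1259 and 951 on neonatal valve arrays, 252, 1883 and 2629.5 on adult aorta arrays and 3635, 3195 and 3866 on neonatal aorta arrays. Its adult groups were the most spread, at 9.71 ± 1.16 in adult valve and 10.07 ± 1.83 in adult aorta (mean log2 signal ± SD, n = 3 each). The _s suffix in that name marks a probe set that Affymetrix designed to match more than 1 transcript. In the valve the 3 probe sets differed between ages by -0.54 ± 0.77, -0.38 ± 0.50 and 0.06 ± 0.31, with overlapping arrays.

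Adam19 encodes a membrane-anchored sheddase of the ADAM family that mouse studies tie to the forming heart valves and septum. Both tested probe sets were called lower in adults in valve and in aorta. Of these, 1385382_at passed the filter only through the neonatal arrays, so its calls by age were favoured by its selection and add no support. Probe set 1389151_at read 170.4, 295 and 205 on adult valve and 912, 752 and 1058 on neonatal valve arrays. It read 425, 709 and 716 on adult aorta and 1453, 1242 and 1876 on neonatal aorta arrays. Adult arrays were below neonatal arrays of the same tissue without overlap. Probe set 1385382_at read 58.6, 87.1 and 86.3 on adult valve, 422, 302 and 439.9 on neonatal valve, 122, 162 and 104 on adult aorta and 411, 321 and 480.5 on neonatal aorta arrays, again without overlap between ages. Adam19 was 4.13-fold and 5.03-fold lower in adult than in neonatal valve by these probe sets, with log2 differences of -2.05 ± 0.29 and -2.33 ± 0.29 (limma adjusted p = 0.0023 and 0.0013). In the aorta the same order gave -1.32 ± 0.29 and -1.65 ± 0.29 (adjusted p = 0.02 and 0.008). With the control RNA block the aorta values were -1.28 ± 0.43 and -1.69 ± 0.43 (adjusted p = 0.29 and 0.17), so both calls were lost there, whereas both valve calls were kept (adjusted p = 0.0062 and 0.0037). Cardiac muscle markers moved with the aorta difference, at 205 to 308 on adult and 31461 to 54428 on neonatal aorta arrays. In the valve they summed to 14649, 83587 and 3817 on adult arrays 1, 2 and 3 and to 75463 to 92163 on neonatal arrays. Adult valve 2 thus lay within the neonatal range of these markers, and adult valve 1 and 3 lay below it. The 3′ to 5′ ratio of beta-actin moved with the valve difference, and the part of these markers or of that ratio in Adam19 was not tested. Between tissues, Adam19 was lower in adult valve than in adult aorta for 1389151_at (-1.46 ± 0.29, adjusted p = 0.0028), while 1385382_at gave -0.74 ± 0.29 (adjusted p = 0.065). The neonatal tissues differed by -0.74 ± 0.29 and -0.06 ± 0.29 without a call. The remaining 2 probe sets, 1385665_at and 1395504_at, reached at most 95.1 and 65.6 on any array and were not tested.

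Timp1 encodes a secreted inhibitor that is induced in many cells by growth factors and cytokines. It read 1259.6, 986 and 1475 on adult valve and 898, 1185 and 667 on neonatal valve arrays. It read 712, 1967 and 2367 on adult aorta and 3752, 3462 and 3716 on neonatal aorta arrays. Neonatal aorta was above all other arrays, and its 3 arrays lay closest together of the 4 groups, at 11.83 ± 0.06 in log2 signal (mean ± SD, n = 3). Timp1 was 4.08-fold lower in neonatal valve than in neonatal aorta, a difference of -2.03 ± 0.39 (limma adjusted p = 0.003), and with the control RNA block it was -2.07 ± 0.59 and not called (adjusted p = 0.06). Adult minus neonatal was 0.46 ± 0.39 in the valve (adjusted p = 0.5) and -1.29 ± 0.39 in the aorta (adjusted p = 0.072). The aorta difference was -0.75 ± 0.26 without adult aorta 1 (adjusted p = 0.077). Adult valve minus adult aorta was -0.29 ± 0.39 (adjusted p = 0.59), and without adult aorta 1 it was -0.82 ± 0.26 (adjusted p = 0.029).

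Timp2 encodes the inhibitor that also bridges Mmp14 and the Mmp2 precursor at the cell surface. Probe set 1386940_at read 6196, 5766 and 2624 on adult valve, 3058, 3496 and 2222 on neonatal valve, 5055, 8458 and 7816 on adult aorta and 7619.6, 6447 and 7458 on neonatal aorta arrays. Probe set 1367823_at read 259.8, 242 and 128 on adult valve, 101, 158 and 108 on neonatal valve, 476, 1556 and 1702 on adult aorta and 725, 691 and 922 on neonatal aorta arrays. For both probe sets the neonatal valve arrays lay below the neonatal aorta arrays, and for 1367823_at all valve arrays lay below all aorta arrays. Timp2 was lower in neonatal valve than in neonatal aorta, with log2 differences of -1.32 ± 0.33 and -2.69 ± 0.46 (limma adjusted p = 0.011 and 0.0015). With the control RNA block these were -1.41 ± 0.49, no longer called, and -2.60 ± 0.68, still called (adjusted p = 0.11 and 0.047). Between adult tissues the differences were -0.61 ± 0.33 (adjusted p = 0.16) and -2.43 ± 0.46, and only the second was called (adjusted p = 0.0022). Probe set 1367823_at reached the minimum for testing only through the aorta arrays, so its calls between tissues were favoured by its selection. No age difference was called, with 0.66 ± 0.33 and 0.74 ± 0.46 in the valve and -0.04 ± 0.33 and 0.48 ± 0.46 in the aorta.

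Timp3 encodes the inhibitor that binds to the extracellular matrix and also blocks several ADAM proteases. Its probe sets had higher means in adults in valve and in aorta. Probe set 1375138_at read 15371, 15743 and 16557 on adult valve, 5377, 5006 and 5823 on neonatal valve, 1163, 5619 and 8618 on adult aorta and 1225, 1094 and 1607 on neonatal aorta arrays. Adult valve arrays were above all others, and adult aorta 1 lay within the range of neonatal aorta while adult aorta 2 and 3 lay above it. The age difference in the valve was 1.56 ± 0.55 for 1375138_at, 1.87 ± 0.58 for 1389836_a_at and 1.66 ± 0.43 for 1372926_at, without overlap between ages. With all 12 arrays only the last was called (limma adjusted p = 0.099, 0.068 and 0.038), and that call was lost in 9 of the 12 fits that left out 1 array. When adult aorta 1 was left out, the valve difference of 1375138_at was 1.56 ± 0.20, with a smaller standard error, and all 3 were called (adjusted p = 0.00081, 0.0005 and 0.00058). The 3′ to 5′ ratios of beta-actin and GAPDH were also higher in adult than in neonatal valve, and their part in this was not tested. In the aorta the same order gave 1.57 ± 0.55, 1.57 ± 0.58 and 0.99 ± 0.43 with no call (adjusted p = 0.11, 0.13 and 0.2). Leaving out adult aorta 1 gave aorta differences of 2.43 ± 0.22, 2.47 ± 0.23 and 1.64 ± 0.22, all called (adjusted p = 0.00019, 0.00023 and 0.0013).

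Between tissues the Timp3 probe sets differed in sign. Probe set 1389836_a_at read 8328, 9212 and 7981 on adult valve, 2749, 1899 and 2424 on neonatal valve, 1551, 8514 and 12341 on adult aorta and 1617, 1701 and 2284 on neonatal aorta arrays. Probe set 1372926_at read 908, 1239 and 964 on adult valve, 369, 287 and 321 on neonatal valve, 366, 1381 and 1449 on adult aorta and 464, 396 and 513 on neonatal aorta arrays. Probe set 1368989_at read 40.8, 68.3 and 63.3 on adult valve, 28.1, 35.1 and 57.6 on neonatal valve, 157, 771 and 685 on adult aorta and 229, 222 and 422 on neonatal aorta arrays. By 1375138_at Timp3 was higher in neonatal valve than in neonatal aorta by 2.06 ± 0.55 on the log2 scale (limma adjusted p = 0.015, and 0.14 with the control RNA block, which ended the call), and higher in adult valve than in adult aorta by 2.05 ± 0.55 (adjusted p = 0.014). Without adult aorta 1 this adult difference was 1.19 ± 0.22 (adjusted p = 0.0025). Probe set 1368989_at was called lower in valve in neonates and in adults (adjusted p = 0.0039 and 0.0028, and 0.095 in neonates with the control RNA block). It passed the filter only through neonatal aorta, which favours a lower value in neonatal valve. Its signals were at absent level on 2 of 3 neonatal valve arrays and 1 of 3 adult valve arrays, so no size is given and little can be read from it. The other probe sets, 1389836_a_at and 1372926_at, gave 0.34 ± 0.58 and -0.49 ± 0.43 in neonates and 0.64 ± 0.58 and 0.19 ± 0.43 in adults, with no call. All 4 probe sets had a higher mean in adults in both tissues.

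**Figure D3:**
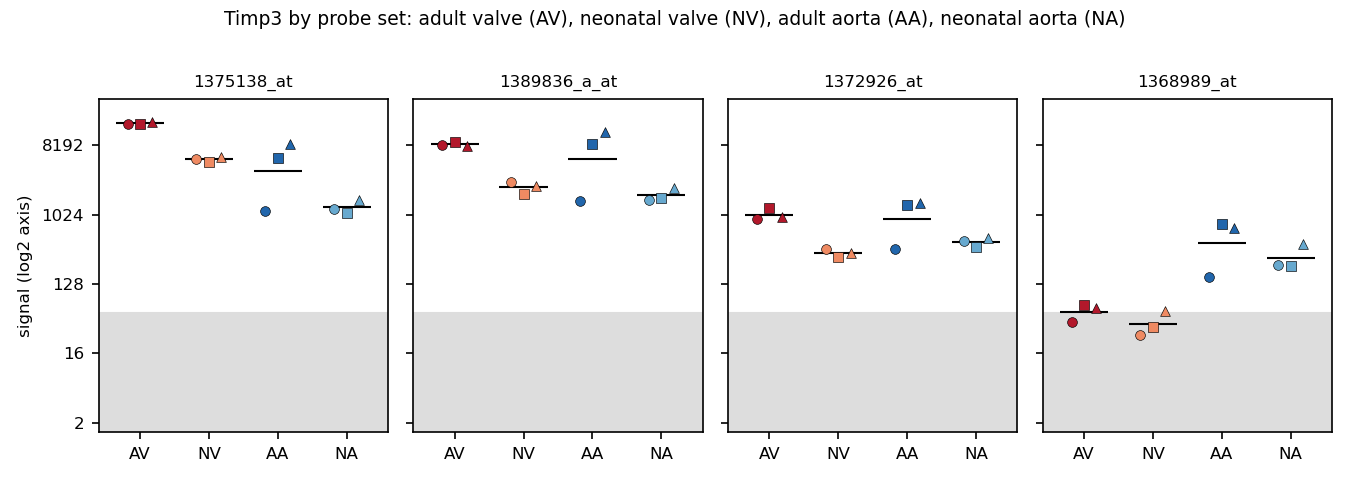
Signal (log2 axis) of the 4 Timp3 probe sets on every array, with groups from left to right adult valve (AV), neonatal valve (NV), adult aorta (AA) and neonatal aorta (NA); circles, squares and triangles are arrays 1, 2 and 3 of a group, bars are geometric means and the grey band ends at 54.6, the highest signal of absent control RNAs. Probe set 1375138_at is highest in adult valve (15371 to 16557), whereas 1368989_at reads 28.1 to 68.3 on valve arrays and 157 to 771 on aorta arrays.

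Adult aorta was compared with neonatal aorta to describe postnatal change in the vessel. Mmp14 and Adam19 fell in adult aorta, and no member rose with all 12 arrays. Of the 16 tested probe sets 0 were higher and 3 were lower, where 1.94% of all tested probe sets were higher and 5.37% lower. The 3 include Adam19 1385382_at, which passed the filter only through the neonatal groups. The members' median difference was -0.78 in log2, against -0.08 for all tested probe sets. With adult aorta 1 left out, 3 Timp3 probe sets rose and 3 probe sets of Mmp14 and Adam19 fell, where 5.17% of all tested probe sets were higher and 8.23% lower in that fit. With the control RNA block 0 were called, where 0.0809% of all tested probe sets were higher and 0.291% lower.

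Adult valve was compared with neonatal valve for the same change in the leaflets. Adam19 fell by both tested probe sets, of which 1385382_at passed the filter only through the neonatal groups, and Timp3 rose by 1 of 4. That made 1 higher and 2 lower of 16, where 4.00% of all tested probe sets were higher and 5.21% lower. The members' median difference was 0.26, against -0.04 for all tested probe sets. With adult aorta 1 left out the count was 7, made of Mmp11, Mmp14 and both Adam19 probe sets, which fell, and 3 Timp3 probe sets, which rose, where 7.58% of all tested probe sets were higher and 9.09% lower. RNA integrity differed along with age in valve, as the 3′ to 5′ ratios above show, and its part was not tested.

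Neonatal valve was compared with neonatal aorta to set the 2 tissues side by side at birth. Mmp14, Timp1 and Timp2 were lower in neonatal valve, as was Mmp23 by 1368961_at and 1381451_at, and Timp3 was higher by 1 probe set and lower by another. Of 16 tested probe sets 1 was higher and 8 were lower, where 13.3% of all tested probe sets were higher and 19.3% lower. The members' median difference was -1.30, against -0.09 for all tested probe sets. Of the 4 probe sets that passed the filter only through neonatal aorta 3 were called, and 6 were called of the other 12. With the control RNA block 1 was called, Timp2 by 1367823_at, where 2.19% of all tested probe sets were higher and 5.44% lower. That probe set passed the filter only through the aorta arrays, so its call was favoured by its selection. Leaving out adult aorta 1 gave a count of 11, where 16.7% of all tested probe sets were higher and 23.1% lower. The summed fibroblast and valve interstitial markers were also lower on the valve arrays, at 91888 to 104035 in neonatal valve and 156297 to 174335 in neonatal aorta. Adipocyte markers summed to 611 to 1088 in neonatal valve and 22616 to 48726 in neonatal aorta, and the part of either list in the differences was not tested.

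Adult valve was compared with adult aorta in the same way. Mmp11, Adam19 by 1389151_at alone and Timp2 by 1367823_at alone were lower in adult valve, and Timp3 was higher by 1 probe set and lower by 1368989_at. The probe set of Mmp11, 1367823_at and 1368989_at passed the filter only through aorta arrays, which favours a lower value in adult valve. That made 1 higher and 4 lower of 16, where 17.3% of all tested probe sets were higher and 19.9% lower, so the share of members called was near that of all probe sets. The members' median difference was -0.69, against -0.05 for all tested probe sets. Leaving out adult aorta 1 gave a count of 11, with 1 higher and 10 lower, where 16.9% of all tested probe sets were higher and 21.1% lower. Adipocyte markers summed to 327 to 1381 in adult valve and 4099 to 99887 in adult aorta, and their part was not tested. These comparisons share arrays: neonatal aorta serves in 2 of them and so does each of the other groups, so their values are not independent.

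Whether the age difference was the same in valve and aorta was tested as an interaction in the limma fit, valve age difference minus aorta age difference. Of 16 probe sets 0 were called, where 0.0485% of all tested probe sets were higher and 0.0108% lower. At an unadjusted p under 0.05 there was 1 of 16, Timp1, against 2170 of 18552 in all. The Timp1 value was 1.74 ± 0.56 (adjusted p = 0.26), and 1.21 ± 0.34 without adult aorta 1. Over the 16 probe sets it ran from -0.72 to 1.74.

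**Figure D4:**
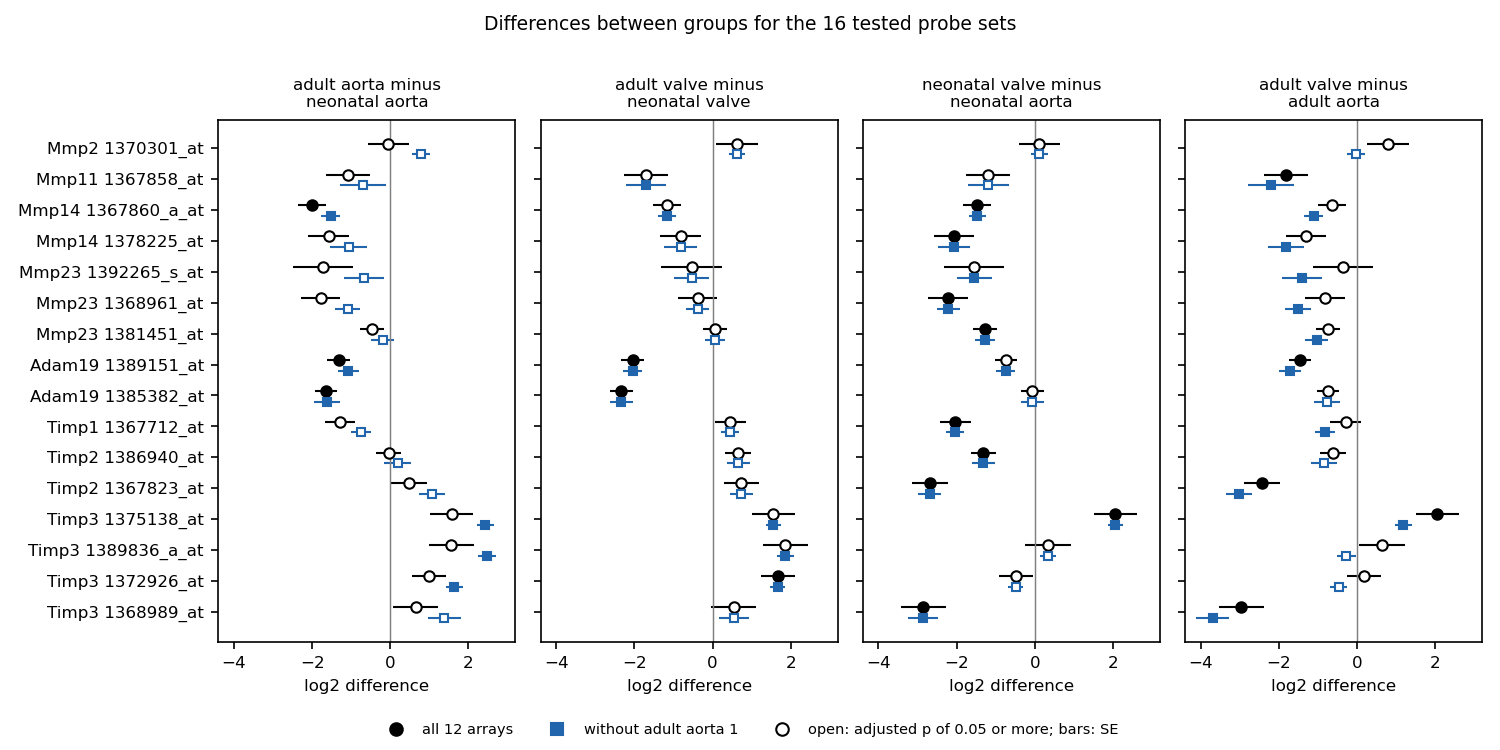
Log2 differences with standard errors for the 16 tested probe sets in the 4 comparisons, as circles for all 12 arrays and squares without adult aorta 1; filled symbols have an adjusted p under 0.05. Filled circles number 3, 3, 9 and 5 from left to right, and filled squares 6, 7, 11 and 11.

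Other genes of matrix proteolysis were read from lists that had been chosen with earlier results of these data known. Beside their counts, 1.94% of all tested probe sets were higher and 5.37% lower by age in aorta, and 4.00% and 5.21% in valve. Between tissues, 13.3% were higher and 19.3% lower in neonatal valve, and 17.3% and 19.9% in adult valve. Of 15 other matrix metalloproteases 11 were on the array and 4 were tested. None was called by age in the aorta, 1 was lower in adult than in neonatal valve, 1 lower in neonatal valve than in neonatal aorta and 2 lower in adult valve than in adult aorta, with 0 higher. Mmp15, a membrane-bound relative of Mmp14, read 90.9, 111 and 37.7 on adult valve and 577, 778 and 569 on neonatal valve arrays, a difference of -3.13 ± 0.42 (limma adjusted p = 0.0019). The adult valve signal of 37.7 was at absent level, so the size of this difference is uncertain. Mmp24, another membrane-bound member, read 301, 416 and 205 on adult valve and 799, 901 and 839 on adult aorta arrays, a difference of -1.52 ± 0.29 (adjusted p = 0.0022). The groups did not overlap in either case. As for the other valve differences by age, the part of RNA integrity in that of Mmp15 was not tested.

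Of 8 other inhibitors 6 were tested, and in adults 2 were higher and 0 lower in each tissue. In neonatal valve against neonatal aorta 0 were higher and 2 lower, and in adult valve against adult aorta 2 were higher and 1 lower. Serping1, the C1 esterase inhibitor, read 7678, 7497 and 5751 on adult valve and 852, 1159 and 685 on neonatal valve arrays, a difference of 2.98 ± 0.25 (adjusted p = 0.00018). Reck, a membrane-anchored inhibitor of metalloproteases, read 11498, 8876 and 5829.7 on adult valve and 1247, 4323 and 3626 on adult aorta arrays, a difference of 1.64 ± 0.45 (adjusted p = 0.015). Cst3, which encodes cystatin C, an inhibitor of cathepsins, was lower in neonatal valve (1609 to 2389) than in neonatal aorta (6112 to 8289), a log2 difference of -1.85 ± 0.33 (adjusted p = 0.0019).

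Of 12 genes that activate or raise metalloproteases 10 were tested, with 0 higher and 2 lower by age in aorta, 0 called by age in valve, 0 higher and 3 lower in neonatal valve against neonatal aorta, and 1 higher and 1 lower in adult valve against adult aorta. Bsg, which encodes a membrane glycoprotein known as an inducer of metalloproteases, read 1154, 1289.5 and 658 on adult valve and 5011, 4935 and 3605 on adult aorta arrays (-2.17 ± 0.30, adjusted p = 0.00042). Plat, the tissue plasminogen activator gene, was higher in adult valve, with 2803, 7083 and 16168, than in adult aorta, with 1486, 1205 and 2882 (1.99 ± 0.52, adjusted p = 0.012). Endothelial markers moved with it, with sums of 11318, 17269 and 33792 on adult valve and 3527 to 7641 on adult aorta arrays, and their part was not tested. Plaur, the urokinase receptor gene, was lower in neonatal valve (52.4 to 61.1) than in neonatal aorta (266 to 431), a difference of -2.51 ± 0.48 (adjusted p = 0.0027). Plaur reached the minimum for testing only because of the neonatal aorta arrays, so this call is given without weight. Its neonatal valve signal of 52.4 was at absent level, so the size is uncertain. The mast cell tryptase gene Tpsab1 read 24.1, 42.6 and 22.7 on adult aorta and 1281, 744 and 1867 on neonatal aorta arrays without overlap (adjusted p = 0.02), and as all adult signals were at absent level no fold is given. Tpsab1 too reached the minimum for testing only because of the neonatal aorta arrays, so its call is also given without weight.

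Among 9 other ADAM genes 7 were tested. Of these 0 were called by age in aorta, 1 was higher and 0 lower in adult valve against neonatal valve, 0 higher and 3 lower in neonatal valve against neonatal aorta, and 0 higher and 2 lower in adult valve against adult aorta. The 3 lower in neonatal valve were Adam9 (adjusted p = 0.00066), Adam10 (-1.81 ± 0.36, adjusted p = 0.0034) and Adam15 (-1.56 ± 0.26, adjusted p = 0.0015). Adam9, a sheddase, read 28.2 to 58.6 on neonatal valve arrays, at absent level on 2 of 3, and 379 to 606 on neonatal aorta arrays, so no size is given. Adam9 and Adam10 reached the minimum for testing only because of the aorta arrays, so their calls between tissues are given without weight.

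All 8 cathepsins, lysosomal proteases that also take part in matrix turnover, were tested. By age 0 were called in aorta, and 2 were higher and 0 lower in valve. Between tissues 0 were higher and 3 lower in neonatal valve against neonatal aorta, and 3 higher and 2 lower in adult valve against adult aorta. Ctss, known from macrophages, read 1857, 3974 and 2797 on adult valve and 433, 805 and 854 on neonatal valve arrays, a difference of 2.04 ± 0.37 (adjusted p = 0.0084). Macrophage markers summed to 11853 to 21523 on adult valve and 5611 to 13487 on neonatal valve arrays, and their part in this difference was not tested. Ctsb and Ctsz were lower in neonatal valve than in neonatal aorta, with differences of -1.24 ± 0.25 and -1.55 ± 0.29, and Ctsd was lower in adult valve than in adult aorta, with -1.40 ± 0.30 (adjusted p = 0.0034, 0.0028 and 0.0048).

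In neonatal valve against neonatal aorta, the median log2 difference was -0.92 for the other matrix metalloproteases, -1.23 for the other inhibitors, -0.84 for the activating genes, -1.01 for the other ADAM genes and -0.54 for the cathepsins, beside -0.06 over all genes tested. In adult valve against adult aorta these medians were -1.49, 0.13, -0.43, -0.52 and -0.01, beside -0.01 over all genes. By age they were -0.24, -0.21, -0.41, -0.19 and 0.11 in the aorta, beside -0.11 over all genes, and -0.32, 1.25, 0.10, 0.21 and 0.60 in the valve, beside -0.05. For the list genes no value with the control RNA block is given. Among the members that block ended every call by age in the aorta and all but 1 between neonatal tissues. All 16 list genes named here kept their call and direction when adult aorta 1 was left out. Reck moved most in adult valve against adult aorta, to 1.09 ± 0.35 (limma adjusted p = 0.031). The counts of the lists changed as follows in that fit. In adult against neonatal aorta 1 other metalloprotease was higher in place of 0, 3 activating genes were lower in place of 2 and 1 ADAM gene was lower in place of 0. In adult against neonatal valve 3 inhibitors were higher in place of 2 and 1 activating gene in place of 0. In neonatal valve against neonatal aorta 3 inhibitors were lower in place of 2 and 5 activating genes in place of 3. In adult valve against adult aorta 0 cathepsins were higher in place of 3, 3 other metalloproteases were lower in place of 2 and 1 ADAM gene in place of 2.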

How the data were processed

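RNA from 12 samples was measured on 1 array each. Per the submitters' processing notes, Affymetrix Expression Console and MAS5 made the deposited values, which are linear signal intensities. Software versions were not given in the sources used here, and every value was taken as deposited. Their trimmed means per array were 500.1 to 500.2, so the deposited signals had been scaled per array. Signals were floored at 1 and converted to log2 without rescaling. Of 31042 probe sets other than 57 controls, 18552 (59.8%) exceeded the median of all values on at least 3 arrays. By the platform annotation 20826 probe sets had 1 symbol, 436 several and 9780 none.

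Group means by title were estimated in R 4.3.3 by limma 3.58.1, whose eBayes step used a trend on signal level and 8 residual degrees of freedom, and p-values were adjusted by Benjamini-Hochberg. It was tested on simulated data. With 3 arrays per group, their number limits the precision. Replicate numbers did not pair the samples: of 18 same-numbered pairs 3 had a correlation of deviations above 0.1. The members and lists were chosen with earlier results of these data known. All members were named, with up to 4 list genes of smallest adjusted p per list. Alternatives were an added 32 in place of the floor, quantile or median scaling, no filter, no trend, grouping by description, a replicate block, a control RNA block, 9 arrays, and leaving out each array.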

Additional observations from a re-analysis of the deposited data

How the results depend on the processing

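The count of called probe sets was 3 for adult against neonatal aorta, 3 for adult against neonatal valve, 9 for neonatal valve against neonatal aorta, 5 for adult valve against adult aorta and 0 for the interaction. Leaving out each array gave 2 to 6, 2 to 7, 8 to 11, 4 to 11 and 0 to 0 in that order, the highest count each time without adult aorta 1. A replicate block (the numbers do not pair the samples) gave 3, 2, 9, 5 and 0, with 1 array correlating best with its own number and 1 of 20 calls lost, Timp3 by 1372926_at in the valve. With the arrays lacking control RNA as a block, 12 of 20 calls were lost and the aorta by age had 0 and the neonatal tissues 1, since 2 of the 3 neonatal aorta arrays then stand apart from the rest. Fitting 9 arrays, without adult aorta 1, neonatal aorta 2 and neonatal valve 3, gave 5, 6 and 10 for the aorta by age, the valve by age and the adult tissues. Grouping by description gave 9, 5, 3 and 3, since it exchanges adult aorta and neonatal valve and so exchanges contrasts, and of the 20 calls it kept 4, lost 12 and turned 4 round. Adding 32, no filter and no trend kept all 20 calls, quantile scaling lost 3 and median centring 2.

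Some differences changed sign, and those called with all arrays and grouped by title were Timp2 1367823_at and Timp3 1368989_at between tissues at both ages, under the grouping by description. Quantile scaling put Adam19 1385382_at between neonatal tissues at 0.0764. Median centring put it at 0.27, and put Timp1 and Mmp23 1392265_s_at between adult tissues at 0.10 and 0.029. In the fit of 9 arrays Mmp2 and Timp2 1386940_at by age in the aorta were 0.70 and 0.11, Mmp23 1381451_at by age in the valve -0.085, and Mmp2, Timp3 1372926_at and Timp3 1389836_a_at between adult tissues -0.028, -0.46 and -0.27. Grouping by description gave, for Timp2 1367823_at, Timp3 1368989_at, Mmp2 and Timp3 1372926_at, -2.69, -2.85, 0.12 and -0.49 by age in the aorta and 0.48, 0.65, -0.048 and 0.99 between neonatal tissues. For Timp1, Timp2 1367823_at, Timp3 1368989_at, Mmp23 1381451_at and Timp2 1386940_at it gave -0.29, -2.43, -2.96, -0.75 and -0.61 by age in the valve and 0.46, 0.74, 0.54, 0.056 and 0.66 between adult tissues. Leaving out 1 array turned the sign of Mmp2 (-0.58 to 0.78) and Timp2 1386940_at (-0.19 to 0.18) by age in the aorta, Mmp23 1392265_s_at (-1.05 to 0.087) and 1381451_at (-0.095 to 0.22) by age in the valve, and Adam19 1385382_at (-0.22 to 0.11) between neonatal tissues. Between adult tissues it turned Mmp2 (-0.028 to 1.33), Mmp23 1392265_s_at (-1.41 to 0.28), Timp1 (-0.82 to 0.048), Timp3 1389836_a_at (-0.27 to 1.22) and Timp3 1372926_at (-0.46 to 0.53). Apart from the exchanges made by the grouping by description, the cause was not tested. Signals at absent level limit Mmp3, Mmp9, Mmp11 and the dim probe sets.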

Other observations

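For 4 members the probe sets of most similar course over the 12 arrays were found by the root mean square difference of log2 signals after each was centred on its own mean, among tested probe sets with 1 symbol. For Mmp2, whose log2 signal had an SD of 0.692, these were Rab31 (0.194), Hip1 (0.222) and Ppp1r36 (0.231). For Mmp14, with an SD of 1.05, they were Gpx7 (0.314), Dbn1 (0.328) and Gpc3 (0.370). For Timp1, with an SD of 0.870, they were Praf2 (0.321), Sri (0.322) and Pck2 (0.324). For Mmp9, with an SD of 1.20 and signals mostly at absent level, they were Psmd14 (0.695), Rhbdl3 (0.719) and Ighvl1 (0.720). The values describe these 12 arrays, on which adult aorta 1 stands apart, and imply nothing of shared function or control.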
